A study of Mus musculus with 6 samples.

Results

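Tbx21, which encodes T-bet, and Eomes, which encodes eomesodermin, are the T-box transcription factors of natural killer (NK) cells. Both were taken from the deposited expression table by their gene symbols, and the 2 genes are described here among the 11717 that the table lists. The libraries were made from NK cells purified from mouse spleens. A group of 3 libraries came from mice labelled IL-15Tg-Xbp1s cKO (cKO), and the other 3 from mice labelled IL-15Tg WT (WT). All 6 carried the IL-15 transgene on the C57BL/6 strain, so both groups stand for NK cells under raised IL-15. The sources used here do not give the promoter of the transgene, the Cre line that deletes Xbp1, or the age and number of the mice. Xbp1 encodes a transcription factor of the unfolded protein response, active in its spliced form, Xbp1s. The series title names Xbp1 and the kinase gene Pim2.

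T-box factors bind DNA through a conserved domain, the T-box, and share much of the site they recognise. In NK cells T-bet drives the late steps of maturation, the expression of interferon gamma and exit from the bone marrow. Eomes acts earlier, maintains NK cell identity and is the factor that sets conventional NK cells apart from type 1 innate lymphoid cells (ILC1), which depend on T-bet. The balance between the factors is often read as a measure of maturation, and IL-15, IL-12 and mTOR signalling are known inputs to it.

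Tbx21 (ENSMUSG00000001444.2) lies on the minus strand of chromosome 11, 97098071 to 97115331 in build mm10, with 1 annotated transcript of 2488 bases. Eomes (ENSMUSG00000032446.14) lies on the plus strand of chromosome 9, 118478212 to 118486132, with 3 annotated transcripts, the longest of 3560 bases, and 4155 exon bases in all. The table holds 1 value per gene, so the Eomes isoforms were not separated. No annotated gene overlaps Tbx21. The antisense transcript Gm33460 overlaps Eomes by 574 bases, of which 118 lie in exons of both, and since the use of strand in counting is not stated, reads there cannot be told apart. Gm33460 was at 11.1 ± 0.365 CPM in cKO and 11.1 ± 0.483 CPM in WT (SD, n = 3 each; CPM, counts per 1000000 reads on the genes of the table), a small level beside that of Eomes.

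The paired genes share their exon plan. Exons 2 to 5 had the same lengths in both, 155, 122, 159 and 62 bases, and 71.3% of these 498 bases were identical at the same position. Exon 3 is shown because it lies in the coding part that both genes share, and because it shows how far reads of one could be mistaken for the other. Capitals mark bases that are identical in both (coding strand, 5′ to 3′, GENCODE M21 transcripts, mm10; Tbx21 at chr11:97101479-97101600, minus strand, and Eomes at chr9:118481265-118481386, plus strand).
Tbx21 exon 3: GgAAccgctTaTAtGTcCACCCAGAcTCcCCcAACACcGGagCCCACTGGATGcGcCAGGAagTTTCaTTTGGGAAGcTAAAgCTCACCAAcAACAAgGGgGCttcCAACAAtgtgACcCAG
Eomes exon 3: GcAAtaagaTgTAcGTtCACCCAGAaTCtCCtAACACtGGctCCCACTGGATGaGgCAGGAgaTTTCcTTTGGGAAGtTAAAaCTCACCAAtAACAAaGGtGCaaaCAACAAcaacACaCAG
Exon 3 was 73.0% identical, and its longest run of identical bases was 11. Over the Tbx21 transcript and the longest Eomes transcript, on either strand, the longest shared run was 16 bases, against reads of 50 bases, so an exact read of one factor could not match the other.

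The 250 bases before each RefSeq start are shown because the groups differ in Xbp1, which encodes a transcription factor. They were searched on both strands for CCACG, the part of the ER stress element that XBP1 and ATF6 contact, for TGACGTGG, the unfolded protein response element, and for TCACACC, the core site of T-box factors. Every TGACGTGG also contains CCACG on its opposite strand. Capitals mark motif matches (RefSeq sequence, GRCm38.p6; Tbx21 at chr11:97115332-97115581, minus strand, and Eomes at chr9:118477939-118478188, plus strand).
Tbx21 upstream: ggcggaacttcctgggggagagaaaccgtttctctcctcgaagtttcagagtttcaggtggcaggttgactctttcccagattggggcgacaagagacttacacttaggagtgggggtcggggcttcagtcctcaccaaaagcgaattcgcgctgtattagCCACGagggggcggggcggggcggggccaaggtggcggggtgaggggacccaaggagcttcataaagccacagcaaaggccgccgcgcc
Eomes upstream: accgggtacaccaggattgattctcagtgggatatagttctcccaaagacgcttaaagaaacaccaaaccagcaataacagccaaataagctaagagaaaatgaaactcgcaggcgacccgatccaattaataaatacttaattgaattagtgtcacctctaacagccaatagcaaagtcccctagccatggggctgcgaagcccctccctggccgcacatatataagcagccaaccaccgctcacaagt
Tbx21 held 1 CCACG, which begins 89 bases before the start, and Eomes held none. Of 32851 annotated mouse promoter windows of this length, 28.3% held CCACG, 0.563% held TGACGTGG and 3.33% held TCACACC. Neither TGACGTGG nor TCACACC was found in either window.

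The reads over the listed genes numbered between 26907844 and 29366756 per cKO library and between 26297292 and 28585834 per WT library. The label of NK cells was checked against 10 defining genes, all of which were detected in every library. Their summed level was 8303 to 9500 CPM in cKO and 9370 to 10565 CPM in WT. The 12 B cell markers summed to 676 to 1573 CPM in cKO and to 425 to 1019 CPM in WT. Of 12 ILC1 and resident lymphoid markers, the 9 in the table summed to 84.8 to 130 CPM in cKO and 97.4 to 124 CPM in WT. Of 12 monocyte and macrophage markers, the 6 in the table summed to 236 to 446 CPM in cKO and 195 to 263 CPM in WT. The 12 T cell markers summed to 264 to 343 CPM in cKO and 277 to 359 CPM in WT. Of 10 dendritic cell markers, the 7 in the table summed to 774 to 812 CPM in cKO and 813 to 957 CPM in WT. Taken singly, however, 6 of these 7 were higher in cKO and 1 was lower. The part of these cells in the results was not tested. Xbp1 was at 35.1, 33.4 and 39.7 CPM in cKO and at 42.9, 61.4 and 63.5 CPM in WT. Every WT library lay above the 3 cKO libraries, as for 1.77% of the 11343 genes tested. Xbp1 is counted over the whole gene and was not separated into spliced and unspliced forms.

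Tbx21 did not differ between the genotypes beyond the spread of the libraries. It was at 394, 377 and 463 CPM in cKO libraries 1, 2 and 3, and at 374, 438 and 524 CPM in WT libraries 1, 2 and 3. The groups overlapped widely: the lowest of all 6 libraries was WT library 1 and the highest WT library 3, with all 3 cKO libraries between them. The means were 411 ± 45.5 CPM in cKO and 445 ± 75.4 CPM in WT (SD, n = 3 each). The log2 fold change, cKO over WT on the log2(CPM + 0.5) scale, was -0.11 with a standard error of 0.14, and it did not pass limma over all genes tested (adjusted p = 1.0). Its 95% confidence interval reached from a fold of 0.742 to 1.16, so neither a change of this size nor equality was shown. A two-sided exact permutation test over the 6 libraries gave p = 0.7, where 0.1 is the smallest that 3 against 3 allow. Without WT library 3 the log2 fold change was 0.019, and without WT library 1 it was -0.22. In bulk RNA, fewer cells of a type and less RNA per cell cannot be told apart.

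Eomes was nearly level across all libraries. It was at 572, 566 and 566 CPM in cKO libraries 1, 2 and 3, and at 546, 565 and 535 CPM in WT libraries 1, 2 and 3. The means were 568 ± 3.22 CPM in cKO and 549 ± 15.1 CPM in WT (SD, n = 3 each). Every cKO library lay above every WT library, but the lowest cKO and the highest WT library were only 1.10 CPM apart, less than the counting error of either value (a CV of 0.772% to 0.843% from 14063 to 16786 reads per library). Of the 11343 genes tested, 2.55% separated the groups in this direction and 1.77% in the other. The groups of Eomes overlapped with the libraries scaled by median ratios. They stayed apart, by 5.59 CPM, after quantile normalization and, by 2.35 CPM, without 2 ribosomal RNA repeat genes. The log2 fold change was 0.050 with a standard error of 0.046 and a 95% confidence interval from a fold of 0.959 to 1.12. It did not pass limma (adjusted p = 1.0), and the exact permutation test, two-sided, gave p = 0.1, the smallest possible.

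**Figure D1:**
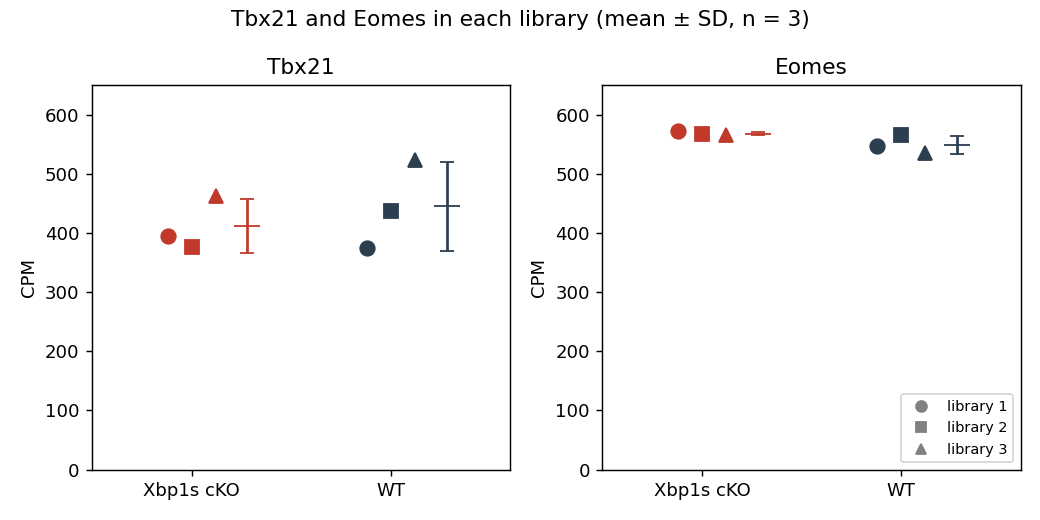
Level of Tbx21 (left panel) and Eomes (right panel) in CPM, with 1 point per library, its shape giving the replicate number, and the mean ± SD of each group (n = 3) beside the points. Tbx21 ran from 374 to 524 CPM with overlapping groups, while all 6 Eomes values lay between 535 and 572 CPM.

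The T-box factors can be set beside the rest of the table. By unadjusted p in limma, Tbx21 ranked 3298th and Eomes 1863rd of the 11343 genes tested, whereas Xbp1 ranked 14th and Pim2, the kinase gene also named in the title, 13th. Pim2 was at 45.9 ± 1.28 CPM in cKO and 59.6 ± 7.55 CPM in WT (SD, n = 3 each). Limma called 0% of the genes tested at an adjusted p under 0.05, so none of these genes passed. At an unadjusted p under 0.05 it listed 133 genes, 0.846% of those tested as higher in cKO and 0.326% as lower. On the recovered reads, edgeR's quasi-likelihood test called 0 genes and listed 145 without adjustment, and DESeq2 called 6 and listed 155. Neither Tbx21 nor Eomes was among any of these.

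The 2 factors had opposite spreads. Over the 6 libraries the standard deviation of log2(CPM + 0.5) was 0.19 for Tbx21 and 0.037 for Eomes. Among the 844 genes whose mean level lay within a factor of 2 of that of Tbx21, 96.0% had a smaller standard deviation, with a median of 0.085. Among the 595 genes within a factor of 2 of Eomes, 5.55% had a smaller one, with a median of 0.090. Within the groups the contrast was the same: the CV was 11.1% in cKO and 16.9% in WT for Tbx21, and 0.568% in cKO and 2.75% in WT for Eomes. Counting error was similar for both, at most 0.983% for Tbx21, so the spread of Tbx21 was more than counting gives, whereas that of Eomes in cKO was not.

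**Figure D2:**
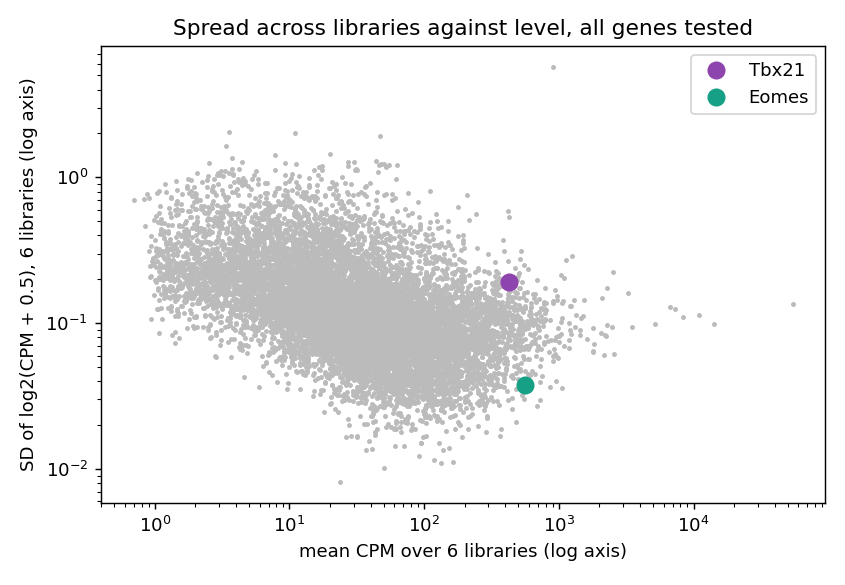
Standard deviation of log2(CPM + 0.5) over the 6 libraries against mean CPM for the 11343 genes tested, both axes logarithmic, with a gray point per gene. Tbx21 (0.19) lies in the upper part and Eomes (0.037) in the lower part of the genes of like level.

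The ratio of the factors within a library does not depend on library size. In reads, Tbx21 over Eomes was 0.690, 0.666 and 0.818 in cKO libraries 1, 2 and 3, and 0.684, 0.775 and 0.980 in WT libraries 1, 2 and 3. The ratio was highest in WT library 3 and next in cKO library 3, and the groups overlapped. The means were 0.725 ± 0.0822 in cKO and 0.813 ± 0.152 in WT (SD, n = 3 each). On the log2 scale the ratio differed by -0.16 between cKO and WT (two-sided exact permutation test, p = 0.6). The difference was -0.013 without WT library 3. The order of the libraries by the ratio was that by Tbx21, except that cKO library 2 (0.666) and WT library 1 (0.684) changed places at the low end.

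Which factor is higher depended on the length used. Per kilobase of exon, Tbx21 was at 165 ± 18.3 in cKO and 179 ± 30.3 in WT, and Eomes at 137 ± 0.776 in cKO and 132 ± 3.63 in WT (CPM divided by kilobases of exon; SD, n = 3 each). All 6 libraries then had a ratio above 1, at 1.15, 1.11 and 1.37 in cKO libraries 1, 2 and 3, and at 1.14, 1.29 and 1.64 in WT libraries 1, 2 and 3. Divided by the longest transcript of each gene instead, the ratio was 0.987, 0.952 and 1.17 in cKO and 0.979, 1.11 and 1.40 in WT, above 1 in 3 of the 6 libraries. An order of the molar levels of the 2 messages was therefore not settled by these data.

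**Figure D3:**
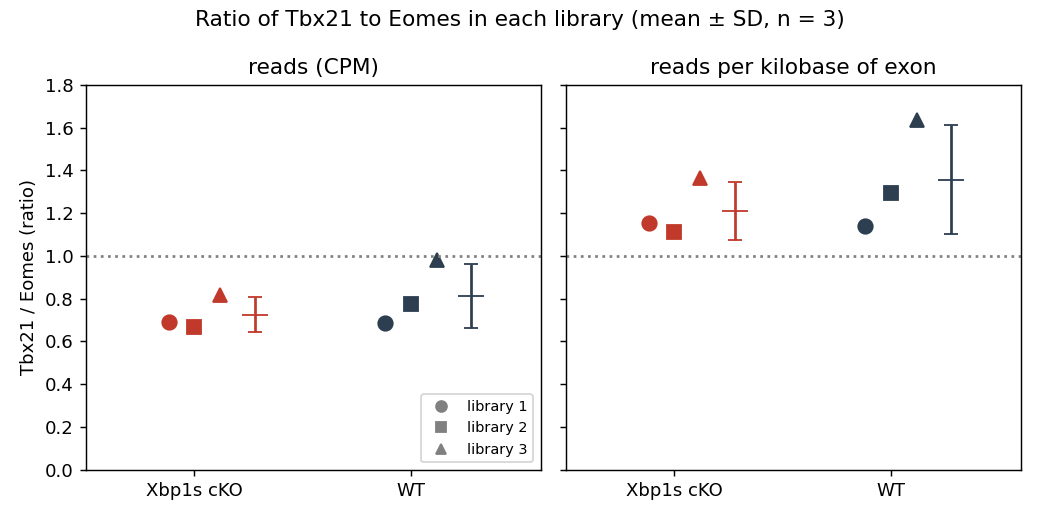
Ratio of Tbx21 to Eomes in each library, from CPM (left panel) and per kilobase of exon (right panel), with the mean ± SD of each group (n = 3) and a dotted line at a ratio of 1. The CPM ratio was 0.666 to 0.980 over the 6 libraries and lay below 1 in each, whereas the ratio per exon length was 1.11 to 1.64 and lay above 1 in each.

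By total exon length, both factors were among the highest of the transcription factor messages compared. Of 33 transcription factor genes, the T-box genes of the table and the factors from a list of regulators of Tbx21 and Eomes, only Id2 (180 CPM per kilobase, mean over 6 libraries), an inhibitor of E proteins that NK cells need, stood above Tbx21 (172). Next came Ikzf1 (149), which encodes Ikaros, Ets1 (143), an ETS factor of early NK development, and Eomes (134). The range of Tbx21 over the libraries, 150 to 211, overlapped that of Id2 (171 to 198) and of Ikzf1 (144 to 156), and that of Eomes, 129 to 138, overlapped that of Ets1 (128 to 150), so these neighbours in the order were not apart beyond their spread. Over all 11717 genes, 1.32% were above Tbx21 and 1.83% above Eomes on this scale. Divided by its longest transcript instead, Eomes was at 157 (150 to 161 over the libraries), within the range of Tbx21. The factors other than Tbx21 were not put on that scale, so the place of Eomes in the order there was not determined. Of 15 other T-box gene names searched, 2 were in the table, both far lower: Mga, which joins a T-box to a MAX-binding domain, was at 15.0 ± 1.05 in cKO and 14.7 ± 0.708 in WT, and Tbx6, a factor of mesoderm patterning, at 8.24 ± 0.733 in cKO and 7.25 ± 0.130 in WT (CPM per kilobase, SD, n = 3 each). Tbx6 was at 15.7, 13.3 and 15.6 CPM in cKO and 12.8, 13.2 and 13.3 CPM in WT, and its log2 fold change of 0.18 did not pass (limma, adjusted p = 1.0).

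The targets of T-bet were examined next, as a list of 22 genes known to be activated by T-bet in NK or T helper cells. In cKO 20 of these were lower and 2 higher. Their median log2 fold change was -0.072, beside 0.0087 for all genes tested, of which 44.5% were lower. None of the 22 passed limma, edgeR or DESeq2, and none had an unadjusted p under 0.05 in limma. Without WT library 3, 14 of 22 were lower, and without WT library 1, 22 of 22. Cxcr3, a chemokine receptor, had the smallest p of the list and was at 32.8, 33.9 and 43.1 CPM in cKO and 39.7, 39.9 and 50.0 CPM in WT. The groups overlapped, as library 3 of cKO lay above WT libraries 1 and 2. Klrg1, an inhibitory receptor of mature cells, was at 184, 179 and 138 CPM in cKO and 177, 231 and 176 CPM in WT. Prf1, which encodes perforin, was at 1178 ± 92.3 CPM in cKO and 1289 ± 111 CPM in WT, and the IL-15 receptor beta chain gene Il2rb at 2151 ± 212 CPM in cKO and 2394 ± 326 CPM in WT (SD, n = 3 each).

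Fasl, the death ligand gene, was at 125, 127 and 146 CPM in cKO and 124, 142 and 188 CPM in WT, and the groups overlapped. S1pr5, which directs mature NK cells out of the bone marrow, was at 289 ± 12.3 CPM in cKO and 303 ± 19.3 CPM in WT (SD, n = 3 each). Ifng, the classical target, was at 34.8, 31.9 and 47.9 CPM in cKO and 31.1, 36.0 and 48.5 CPM in WT, a log2 fold change of -0.011 and the largest p of the list; it was chosen after its values were seen.

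Genes known to be repressed by T-bet did not lie the other way. Of 12 named, 9 were tested, and in cKO 6 were lower and 3 higher, where 44.5% of all genes tested were lower. The median log2 fold change of the 9 was -0.066, and it was 0.032 without cKO library 2 and -0.0041 without WT library 3. None of the 9 passed limma, edgeR or DESeq2. Il7r, the IL-7 receptor alpha chain gene, was at 28.3, 14.6 and 23.1 CPM in cKO and 23.3, 29.0 and 20.5 CPM in WT, so its groups overlapped. Cd27, a marker of less mature cells, was at 60.7 ± 9.36 CPM in cKO and 63.5 ± 4.48 CPM in WT, and the repressor gene Bcl6 at 45.1 ± 12.2 CPM in cKO and 40.9 ± 3.50 CPM in WT. Gata3, the T helper 2 factor, was at 92.8 to 98.5 CPM in cKO and 91.6 to 103 CPM in WT. Tcf7, which encodes TCF-1, was at 159 ± 29.7 CPM in cKO and 165 ± 18.6 CPM in WT (SD, n = 3 each).

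Genes linked to Eomes, 12 in number and 5 of them shared with the T-bet activated list, were lower in cKO in 12 of 12 cases, and 11 of 12 with quantile normalization. Their median log2 fold change was -0.12, beside 0.0087 for all genes tested, of which 44.5% were lower. None passed limma, edgeR or DESeq2 or had an unadjusted p under 0.05 in limma. The count was 9 of 12 without cKO library 3 or without WT library 2. Of the 12, 6 are Ly49 receptor genes, whose reads can be split between near-identical copies, so single values are uncertain. Klra8, which encodes Ly49H, the receptor for a cytomegalovirus protein, was at 511, 486 and 469 CPM in cKO and 508, 546 and 536 CPM in WT, with cKO library 1 above WT library 1. Klra4 was at 375, 373 and 354 CPM in cKO and 377, 414 and 390 CPM in WT, and its groups did not overlap. Of all genes tested, 1.77% separated the groups in this direction, as did 1 of the 12 genes linked to Eomes. Klra3 was at 93.4 ± 5.07 CPM in cKO and 112 ± 19.8 CPM in WT, and Klra9 at 207 ± 18.4 CPM in cKO and 225 ± 9.52 CPM in WT (SD, n = 3 each). The 10 NK cell markers, 2 of which (Prf1 and Itga2) are also in this list, were lower in cKO in 10 of 10 cases, in 7 of 10 without cKO library 3, in 8 of 10 without WT library 2 and in 9 of 10 with quantile normalization. At an unadjusted p under 0.05 in limma, 1 of the 10 was listed, Ncr1, which encodes the receptor NKp46, and DESeq2 called it. Ncr1 was at 940 ± 51.4 CPM in cKO and 1305 ± 90.1 CPM in WT (SD, n = 3 each). In cKO, 12 of 12 markers of B cells were higher, with 0 at an unadjusted p under 0.05 in limma. Of 12 monocyte and macrophage markers named, 6 were tested, and 6 of 6 were higher, with 2 (Axl and Mpeg1) at an unadjusted p under 0.05 in limma. Dendritic cell markers were higher in 6 of 7 cases, with 1 at that p. Neutrophil markers were higher in 7 of 9, with 2 at that p. T cell markers were higher in 7 of 12 cases and ILC1 and resident lymphoid markers in 6 of 9, with 0 at that p. Erythroid and platelet markers were higher in 3 of 8, also with 0. Of all genes tested, 0.846% were higher at that p. The part of these shifts in the values of the lists was not tested.

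**Figure D4:**
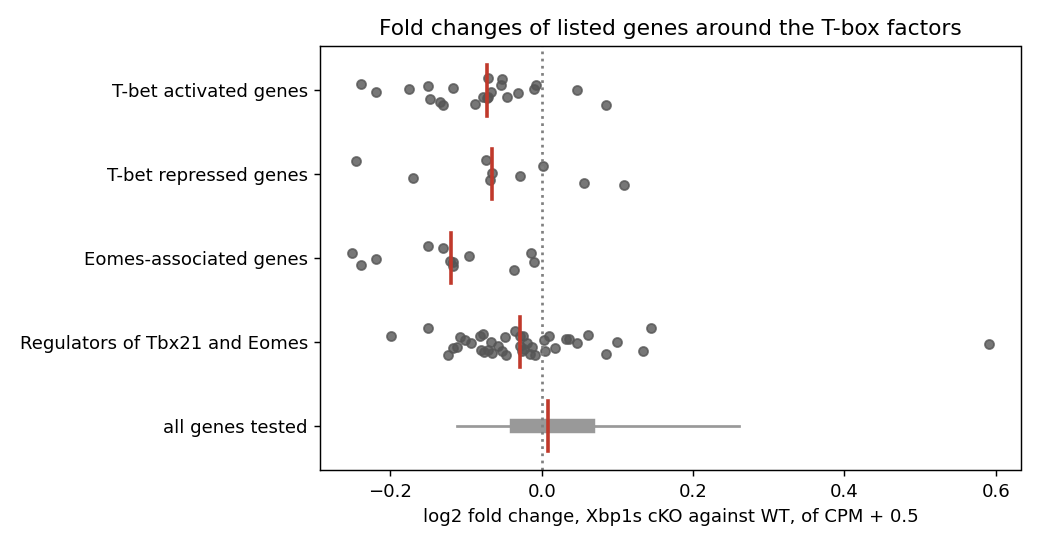
Log2 fold change, Xbp1s cKO against WT on the log2(CPM + 0.5) scale, of each member of 4 gene lists (gray points, spread vertically only for sight) with the list median in red; for all genes tested, the thin line spans the central 90% and the thick line the central 50%. The medians were -0.072, -0.066, -0.12 and -0.029 from top to bottom, and 0.0087 for all genes, and the point near 0.59 is Ifngr2.

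Regulators upstream of the 2 factors formed the last list, 42 genes tested. The list shares 6 genes with the T-bet activated list, and Gata3 and Tcf7 are also in the T-bet repressed list, so the counts are not separate. In cKO 29 of the 42 were lower and 13 higher, where 44.5% of all genes tested were lower. Their median log2 fold change was -0.029, but 0.012 when cKO library 2 was left out and 0.019 when WT library 3 was. None passed limma, edgeR or DESeq2, and 1 had an unadjusted p under 0.05 in limma. That gene was Ifngr2, the signalling chain of the interferon gamma receptor. It was at 15.8, 9.59 and 15.1 CPM in cKO and 8.38, 10.8 and 6.96 CPM in WT, with a log2 fold change of 0.59 (limma, adjusted p = 1.0). The libraries in which it was highest, cKO libraries 1 and 3, also had the highest B cell marker sums, at 1573 and 1495 CPM, against 676 CPM in cKO library 2 and 915, 1019 and 425 CPM in WT libraries 1, 2 and 3. The monocyte and macrophage marker sums were 446, 236 and 291 CPM in cKO libraries 1, 2 and 3. In WT libraries 1, 2 and 3 they were 211, 263 and 195 CPM, and these sums had the same order of libraries as Ifngr2. The part of B cell, monocyte, macrophage or other reads in this difference was not tested.

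Ikzf2, which encodes Helios, was at 21.3 ± 0.899 CPM in cKO and 19.2 ± 0.671 CPM in WT, and the groups did not overlap. Of all genes tested, 2.55% separated the groups in this direction, as did 1 of the 42 regulators. Id2 was at 423, 431 and 417 CPM in cKO and 417, 460 and 482 CPM in WT, overlapping at the lowest WT value. The common gamma chain gene Il2rg, through which IL-15 signals, was at 242 ± 10.7 CPM in cKO and 256 ± 12.8 CPM in WT, and Jak1, the kinase bound to the IL-15 receptor beta chain, at 1768 ± 77.8 CPM in cKO and 1870 ± 79.1 CPM in WT (SD, n = 3 each). None of these passed (limma, adjusted p = 1.0).

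Genes near the loci were compared as well. Tbkbp1, which encodes an adaptor of the kinase TBK1 and lies 20840 bases from Tbx21, was at 25.8 ± 2.80 CPM in cKO and 24.7 ± 4.39 CPM in WT. Like Tbx21, it was lowest in WT library 1 and highest in WT library 3. Kpnb1, 44383 bases from Tbx21, was instead highest in cKO library 2 (377 CPM) and lowest in WT library 2 (311 CPM). On the other side Osbpl7, an oxysterol-binding protein gene 29167 bases away, was at 57.4 ± 3.86 CPM in cKO and 58.9 ± 1.74 CPM in WT. Scrn2, Mrpl10 and Npepps, also within 100 kilobases of Tbx21, were at 5.30 ± 0.926, 37.0 ± 3.47 and 74.4 ± 4.62 CPM in cKO. In WT these were at 5.02 ± 0.590, 35.9 ± 1.93 and 71.0 ± 4.54 CPM. Neither they nor Osbpl7 had the lowest and highest libraries of Tbx21. Golga4, a golgin gene 20135 bases from Eomes, was at 210 ± 16.8 CPM in cKO and 209 ± 20.1 CPM in WT (SD, n = 3 each). Although on another chromosome than Tbx21, Golga4 too was lowest in WT library 1 (194 CPM) and highest in WT library 3 (232 CPM).

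The genes most like each factor were sought by Pearson's r of log2(CPM + 0.5) over the 6 libraries, among 2274 genes with a mean of at least 10 CPM and a standard deviation of at least 0.15. The r values describe 6 libraries that share their composition and carry no test. Tbx21 was followed most closely by Zswim6 (r = 1.00), the magnesium transporter gene Slc41a2 (0.998), 1700025G04Rik (0.996), Plekha5 (0.994) and the phosphodiesterase gene Pde8a (0.990). Zswim6 was at 75.7, 72.8 and 86.8 CPM in cKO and 71.85, 83.2 and 97.7 CPM in WT. Its order of libraries was that of Tbx21, with WT library 3 highest and WT library 1 lowest. The most opposite were Dcaf4 (-0.990), the small nucleolar RNA gene Rnu3a (-0.985) and Znhit6 (-0.982). The pattern of Tbx21 was common: 147 of the 2274 genes had r of at least 0.9 with it and 205 had r of -0.9 or lower.

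For Eomes, 9 of these genes had r of at least 0.9 and 0 had r of -0.9 or lower. Its own standard deviation lies below the minimum of 0.15 set for the candidates, so genes as steady as Eomes were not among them. The closest candidates were Tmem154 (0.951), the progranulin gene Grn (0.943), E130307A14Rik (0.943), the phospholipase gene Plcg1 (0.938) and the cell cycle factor gene E2f2 (0.917). Grn was at 40.1, 34.6 and 33.7 CPM in cKO and 29.2, 34.3 and 27.4 CPM in WT, and like Eomes was highest in cKO library 1 and lowest in WT library 3. The most opposite were Crtam (-0.887), 4930481A15Rik (-0.874) and Tshz3 (-0.864). Between Tbx21 and Eomes r was -0.48 over the 6 libraries.

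**Figure D5:**
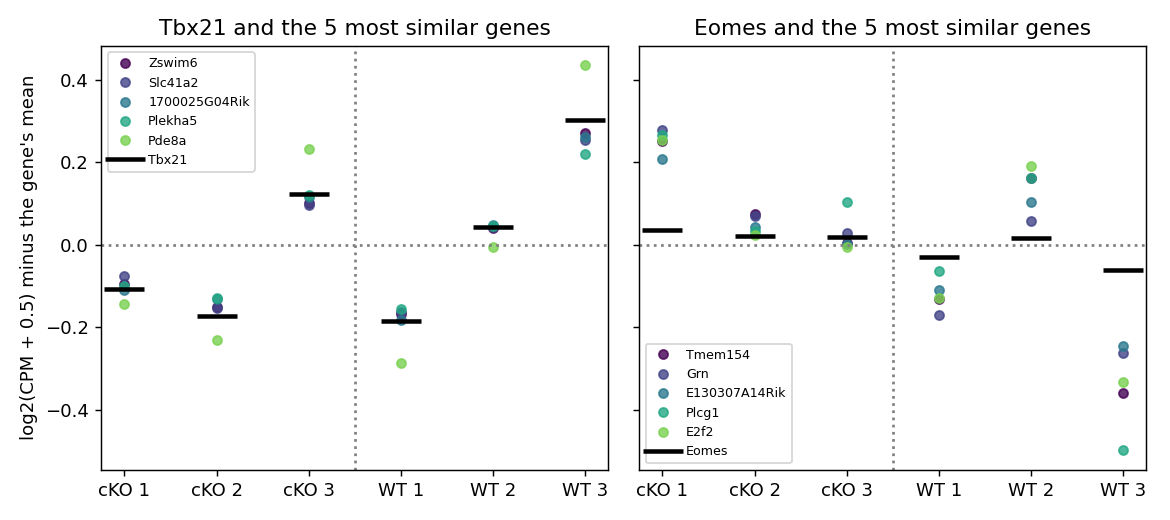
Log2(CPM + 0.5) of each gene minus its mean over the 6 libraries, for Tbx21 (left panel) and Eomes (right panel), drawn as black bars, and for the 5 genes of highest r with each, drawn as points. The Tbx21 points lie near the bars, Pde8a farthest from them, and the Eomes bars stay close to 0 (standard deviation 0.037). The points of the right panel are farther out by selection, since candidates needed a standard deviation of at least 0.15.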

How the data were processed

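RNA from purified splenic NK cells of 3 IL-15Tg-Xbp1s cKO and 3 IL-15Tg WT samples was sequenced as single reads of 50 bases, per the labels. Groups come from the sample titles. Whether replicates are different animals is not stated. The p-values therefore reflect the variation among these samples, possibly technical, and no more. The submitters' processing notes name HISAT2, HTSeq, DESeq2 and mm10. The deposited table is called RPKM, but the authors' values are CPM over the listed genes. Each column sums to 1000000 and 100% of the values equal a whole number of reads to within 0.01, which gave back the read counts. Exon lengths were used as deposited. The planned design assumed RPKM and its log-scale test was kept.

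The 11343 genes that reached 1 CPM in 3 or more libraries were tested on log2(CPM + 0.5), a scale that understates changes of low genes, with limma 3.58.1 (R 4.3.3; variance trend, genotype only) and Benjamini-Hochberg adjustment over all of them at 0.05. edgeR 4.0.16 and DESeq2 1.42.0 were run on the reads as alternatives, and all 3 were first tested on simulated data. Every pair of libraries differed by more than sampling noise (lowest chi-square over degrees of freedom 4.75). The lowest values were all between genotypes: 4.75 for cKO 2 with WT 1, 7.15 for cKO 1 with WT 2 and 14.5 for cKO 3 with WT 3. Within a group the lowest was 16.8, for cKO 1 with cKO 3. The cause was not tested. Gene coordinates are from GENCODE M21 (11709 genes matched), and 16 symbols were replaced through their identifiers. Intervals cover the spread of libraries, and counting errors cover counting only. The 2 members and the gene lists were chosen with earlier results of these data known. Genes were named by a rule: for each list the 6 genes with the smallest p, all detected T-box genes, the defining marker genes, and the genes of highest and lowest r. The neighbours of the loci were added after their values were seen. A gene that this rule names is not reported here.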

Additional observations from a re-analysis of the deposited data

How the results depend on the processing

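For Tbx21 and Eomes, 12 settings that keep all libraries (other pseudocounts, filters, scalings, removal of 2 ribosomal RNA repeat genes, no variance trend, the replicate block, edgeR and DESeq2) kept the direction and gave no call, with log2 fold changes of -0.13 to -0.070 for Tbx21 (unadjusted p of 0.229 to 0.612) and 0.037 to 0.058 for Eomes (0.212 to 0.474). Leaving out each library in turn gave -0.22 to 0.019 for Tbx21, reversed without WT library 3 (0.019, the cause was not tested), 0.032 to 0.071 for Eomes, and -0.27 to -0.013 for the log2 ratio. The ratio difference was -0.16 with pseudocounts of 0 or 1. Division by exon length or, added after the data were seen, by longest transcript shifts the log2 ratio of every library alike. It could therefore not change this difference. The number of genes called was 0 except with DESeq2, which called 6, and the cause was not tested. The filters, the fit without a variance trend and the replicate block could not move the log2 fold changes of Tbx21 and Eomes, only their p-values. With replicate number as a block, the fit called 0 genes, with Tbx21 at -0.11 (unadjusted p = 0.229) and Eomes at 0.050. The ratio difference, which the block could not move either, was -0.16 (exact sign-flip p = 0.5). Deviations of same-numbered libraries correlated at -0.17, -0.51 and 0.48, so the numbers did not pair the samples: library 3 of each group correlated best with its own number, and libraries 1 and 2 with the other's (0.65 and 0.59). With all libraries, the medians of the 4 gene lists kept their sign in these 12 settings, although the replicate block and the fit without a variance trend could not move them. Leaving out 1 library turned the sign of the median of the T-bet repressed genes (0.032 without cKO library 2) and of the regulators (0.012 without cKO library 2 and 0.019 without WT library 3). With 3 libraries a group, exact permutation tests cannot go below p = 0.1, and the sign-flip test over 3 pairs has a higher floor. Counting error is below 1% for both factors. For Tbx21 the spread between libraries therefore sets the precision, whereas the CV of Eomes in cKO, 0.568%, was no larger than counting gives.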
